A study of Mus musculus with 27 samples.

Results

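The Fos family (Fos, Fosb, Fosl1 and Fosl2), the Jun family (Jun, Junb and Jund) and the early response factors Egr1, Klf4 and Klf6 were followed through osteoblast differentiation of mouse calvarial cells. These 10 genes were taken by name from the 37991 gene identifiers of each expression profile. Calvaria, the flat bones of the skull vault, came from C57BL/6J-Col3.6 CFP pups aged 5 to 9 days, in which a fragment of the collagen type I promoter (Col3.6) drives cyan fluorescent protein. Digested calvarial cells grew for 4 days in DMEM with serum, were sorted for the fluorescent protein and were returned to culture in αMEM with ascorbic acid, β-glycerol phosphate and serum. RNA was sequenced on days 2, 4, 6, 8, 10, 12, 14, 16 and 18 of this treatment, with 3 profiles a day and 27 in all, and every day shared the strain, the sort and the medium, so that day is the only difference the labels give between groups. The sort selected cells in which the Col3.6 fragment was active. The study considered these sorted cells pre-osteoblasts, while the stage is labelled osteoblast, and no untreated culture was compared.

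The 3 profiles of a day carried 1 barcode in 3 sequencing lanes, so each day was taken as 1 library. The study describes them as triplicate samples, and whether they came from separate cultures is not given in the sources used here. If they are lanes of a single library, their SD reflects only sequencing and quantification. The p-values here rest on the scatter of the 9 libraries around a curve in day. A day held 22470195 (day 10) to 62009157 (day 12) estimated counts, with a median of 43146793. Of all genes tested along the days, 28.3% rose and 26.1% fell. Of 11 osteoblast markers, 8 rose along the days, 0 fell and 3 did not pass the test. Their summed level was 3000 to 5280 TPM on days 2 to 6 and 7810 to 9600 TPM on days 14 to 18, where TPM is relative transcript abundance, corrected for length, after scaling to the upper quartile of each profile. Col1a1 and Col1a2 held most of this sum, at 1530 and 983 TPM on day 2 and 4260 and 4110 TPM on day 18. Bglap, which encodes osteocalcin, was at 1.24 TPM on day 2 and 208 TPM on day 18, whereas Alpl, the alkaline phosphatase of bone, was at only 9.13 and 17.6 TPM on those days and at 0.857, 0.467 and 1.45 TPM on days 4, 6 and 8. Sp7 (osterix), a transcription factor of osteoblasts, was highest on day 2 at 32.3 TPM, lowest on day 8 at 2.77 TPM and at 10.6 TPM on day 18, and its line did not pass. Genes of other cell types moved with day as well: 6 of 7 monocyte and macrophage markers rose (summed level 24.1 to 61.7 TPM on days 2 to 6, 522 to 2010 TPM on days 14 to 18), as did 5 of 5 adipocyte markers (3.21 to 7.44 TPM, then 188 to 407 TPM). Lyz2 held most of the monocyte and macrophage sum, at 19.9 TPM on day 2 and 1860 TPM on day 18. Of 6 osteoclast markers 3 rose, 1 did not pass the test and 2 (Dcstamp and Calcr) had 0 counts. Of 5 endothelial markers 3 could be tested, of which 2 rose and 1 fell. The summed level of the 5 was 3.24 to 4.10 TPM and then 8.87 to 12.1 TPM. Pecam1 and Emcn, which could not be tested, did not exceed 0.339 and 0.154 TPM. Of 5 skeletal muscle markers 3 could be tested and 2 fell, with 8.78 to 18.2 TPM and then 1.66 to 2.72 TPM. Myod1 and Myog did not exceed 0.0424 and 0.0322 TPM. In RNA from mixed cultures, fewer cells of a type and less RNA per cell cannot be told apart, and the part of these cell types in the values that follow was not tested.

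Activator protein 1 (AP-1) is a pair of basic leucine zipper proteins, usually a Fos protein bound to a Jun protein, that sits on the DNA sequence TGANTCA. Fos, Jun, Egr1 and the Klf genes are immediate early genes, whose transcription is switched on within minutes of a growth signal, without new protein synthesis, and whose messengers are short-lived. In bone, Fos family proteins act in both osteoblasts and osteoclasts. Fosl1 (Fra-1) and Fosl2 (Fra-2) lack the strong activation domain of Fos and are known to raise bone formation in mice when overexpressed.

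The sequence before the start of transcription was available for 8 of the 10 genes, from RefSeq on GRCm38.p6, a later build than that of the profiles. It was not available for Egr1 and Fosl1, which were therefore not searched. The 250 bases upstream of the start are shown for Jun, Klf6, Fos and Fosb, which carried a full or partial cyclic AMP response element (CRE), the relative of the AP-1 site that ATF, CREB and some Jun dimers bind. Jun lies at chr4:95052223-95052472 on the minus strand, Klf6 at chr13:5861239-5861488 on the plus strand, Fos at chr12:85473640-85473889 on the plus strand and Fosb at chr7:19310046-19310295 on the minus strand. Each is printed 5′ to 3′ in the direction of the gene, and capitals mark the motif.
Jun: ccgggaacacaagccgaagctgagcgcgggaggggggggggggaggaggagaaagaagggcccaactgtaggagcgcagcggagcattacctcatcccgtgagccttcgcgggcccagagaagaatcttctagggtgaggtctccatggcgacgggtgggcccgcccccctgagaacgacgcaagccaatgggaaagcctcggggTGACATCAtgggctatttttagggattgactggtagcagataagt
Klf6: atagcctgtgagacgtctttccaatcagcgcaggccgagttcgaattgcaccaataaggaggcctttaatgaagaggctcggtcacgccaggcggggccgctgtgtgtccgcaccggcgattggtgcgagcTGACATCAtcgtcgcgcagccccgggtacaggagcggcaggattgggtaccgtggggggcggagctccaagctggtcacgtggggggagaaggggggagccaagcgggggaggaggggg
Fos: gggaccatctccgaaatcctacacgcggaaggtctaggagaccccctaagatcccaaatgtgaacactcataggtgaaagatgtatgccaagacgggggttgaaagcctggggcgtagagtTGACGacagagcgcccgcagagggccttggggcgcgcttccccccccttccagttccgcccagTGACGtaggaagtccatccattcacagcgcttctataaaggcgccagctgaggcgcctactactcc
Fosb: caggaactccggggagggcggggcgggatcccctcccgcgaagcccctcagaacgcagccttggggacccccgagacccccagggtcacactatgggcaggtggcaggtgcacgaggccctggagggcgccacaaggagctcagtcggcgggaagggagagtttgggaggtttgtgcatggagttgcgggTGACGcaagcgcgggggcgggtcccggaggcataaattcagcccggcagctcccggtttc
The motifs were searched on both strands. The CRE-like site TGACNTCA was present at -45 to -38 from the start of Jun and at -119 to -112 from that of Klf6, as TGACATCA in both genes, and was found in 7.49% of 32851 promoter windows of the same length. The shorter core TGACG, which is part of TGACNTCA where N is G and so of neither match above, began at -129 and -66 in Fos, at -60 in Fosb, at -106 in Junb and, on the other strand, at -232 in Klf4. It was in 17.8% of all windows. The AP-1 site TGANTCA was in 0 of the 8 windows and in 6.75% of all windows. Fos alone of the 8 had a TATAAA match (12.4% of windows), and the CArG box bound by serum response factor was in 0 of 8 (1.47% of windows). Such matches describe the letters of a window and not binding. Sequence further upstream was not searched, so a motif absent from a window can lie beyond it.

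Along the 18 days some of the genes fell, some rose and the others did not pass a straight line in day. A straight line in day was fitted by edgeR to the counts of all 15659 genes that passed a filter on low counts, and all 10 genes passed it. The fitted line fell for 5 of the 10 (Fosl1, Junb, Jun, Fosl2 and Klf6), rose for 2 (Fosb and Jund) and did not pass the threshold for 3 (Fos, Egr1 and Klf4) at a Benjamini-Hochberg adjusted p under 0.05. Of all genes tested, 54.3% passed in either direction, 26.1% falling and 28.3% rising, so that 7 of 10 is not far above the background of a culture in which most genes changed. From day 2 to day 18 the median log2 change of the line was -0.80 over the 10 genes and 0.05 over all genes. A natural spline in day, which can follow a rise and fall, passed for 8 of 10 (all but Fos and Egr1), beside 59.1% of all genes. Levels of days 2 to 6 and days 14 to 18 did not overlap for 6 of the 10 (Fosb, Fosl1, Fosl2, Jun, Junb and Klf6), and for 58.0% of all genes.

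**Figure D1:**
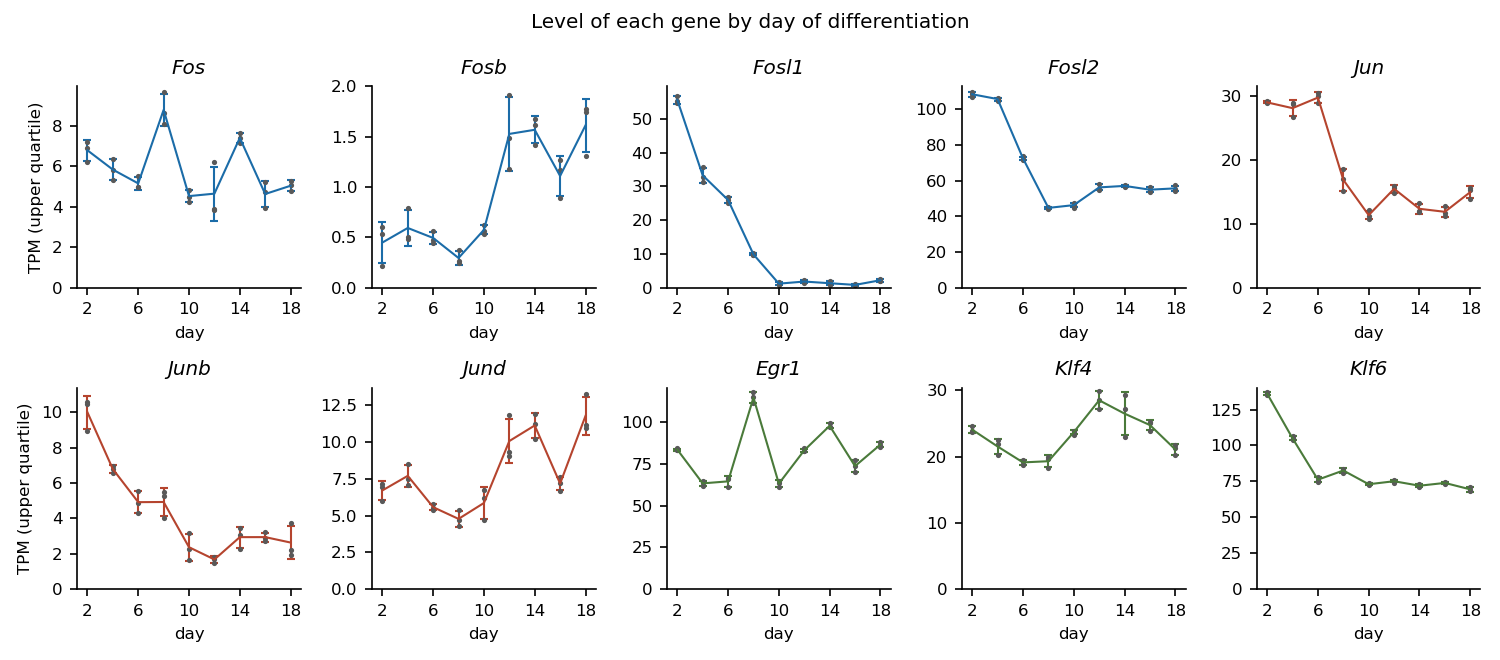
Level of each of the 10 genes by day, in TPM after upper-quartile scaling on linear axes that start at 0; grey points are the 3 profiles of a day, and lines join their means with the SD over profiles. Fosl1 is at 55.6 TPM on day 2 and at 1.17 TPM on day 10, while Fos and Egr1 have their highest level on day 8.

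Ranked by mean TPM over the days (± SD over 9 days), Klf6 was highest at 84.8 ± 22.0, followed by Egr1 at 81.25 ± 17.4 and Fosl2 at 66.8 ± 24.2. Klf4 at 23.15 ± 3.19, Jun at 18.8 ± 7.78 and Fosl1 at 14.65 ± 19.5 TPM formed the middle of the order. Jund at 7.86 ± 2.54, Fos at 5.87 ± 1.49, Junb at 4.36 ± 2.66 and Fosb at 0.914 ± 0.54 TPM were the lowest. Within a day, the SD over the 3 profiles was at most 1.34 TPM for Fos, 0.371 for Fosb, 2.17 for Fosl1 and 1.72 for Fosl2. It was at most 1.70 TPM for Jun, 0.959 for Junb, 1.51 for Jund, 3.66 for Egr1, 3.19 for Klf4 and 1.61 for Klf6. This spread over profiles was small beside the range over days except for Fosb, Junb, late Fosl1 and some days of Fos, Jund and Klf4. Neighbours in this order had overlapping ranges over the days, except that every day mean of Fosl2 lay above every day mean of Klf4. A further exception was Junb, with day means from 1.68 TPM, above those of Fosb, up to 1.61 TPM. Single profiles of Junb and Fosb overlapped. Of the 10 genes, 8 were at 1 TPM or more on all 9 days, Fosl1 on 8 and Fosb on 4. Fosl1 had by far the widest range, its highest day 70.2 times its lowest, against 5.97 times for Junb, 5.48 for Fosb and 1.49 (Klf4) to 2.62 (Jun) for the other 7.

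Fosl1, which encodes Fra-1, was at 55.6, 33.3, 26.0, 9.84, 1.17, 1.79, 1.29, 0.792 and 2.18 TPM from day 2 to day 18. The fall was over by day 10, with 25 counts (1.11 CPM) against 2311 (54.7 CPM) on day 2. The mean was 38.3 TPM over days 2 to 6 and 1.42 TPM over days 14 to 18, and day 2 was 25.6 times day 18. The straight line, which does not follow the plateau, fell by 6.01 log2 units (SE 0.87, edgeR adjusted p = 0.000306), beyond the observed ratio, and the spline had an adjusted p of 3.44e-07. Fosl1 (ENSMUSG00000024912) spans 5447703 to 5455945 on the plus strand of chromosome 19 of NCBIM37 and overlaps Ccdc85b on the minus strand. Estimated counts of Fosl1 were fractional in all 27 profiles, so reads were shared with another gene, and whether counting used the strand is not given in the sources used here. Ccdc85b itself held 127.6 to 438.4 counts a day, more than Fosl1 from day 10 on. With the counts of both genes pooled, an alternative chosen after seeing the data, the line fell by 3.41 (edgeR adjusted p = 0.000211), and without day 18 that of Fosl1 alone fell by 7.89.

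Fosl2, which encodes Fra-2 (ENSMUSG00000029135, chromosome 5, 32438845 to 32460204 of NCBIM37, plus strand), was the main Fos family transcript on every day. Its level was 108.4, 105.7, 72.4, 44.7, 46.2, 56.2, 57.0, 54.9 and 55.6 TPM from day 2 to day 18, highest on days 2 and 4, lowest on day 8 and nearly level from day 12 on. The line fell by 1.07 log2 units (SE 0.29, edgeR adjusted p = 0.00937). Without the library of day 2 the fall was 0.82 with an adjusted p of 0.062, so the call on the line rests on that day, while the spline (adjusted p = 6.09e-05) was called with each day left out in turn.

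Fos itself (ENSMUSG00000021250, chromosome 12, 86814840 to 86818223, plus strand), the founding member and the partner of Jun in the classical AP-1 dimer, was low and irregular. Its level was 6.80, 5.84, 5.16, 8.80, 4.53, 4.65, 7.41, 4.63 and 5.04 TPM from day 2 to day 18. Days 8 and 14 stood above their neighbours: on day 8 Fos had 11.0 CPM (counts scaled to the library total; 95% Wilson interval 9.86 to 12.2), against 6.05 (5.36 to 6.83) on day 6 and 5.21 (4.35 to 6.24) on day 10. These intervals cover counting error only. The line did not pass (log2 change -0.71, SE 0.37, edgeR adjusted p = 0.131), nor did the spline (adjusted p = 0.352), which cannot follow single days. Early and late means of TPM differed little, with a ratio of 1.04. In CPM, Fos was at 8.42, 5.74 and 6.05 on days 2 to 6 and at 6.73, 4.155 and 4.50 on days 14 to 18.

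Fosb, a close relative of Fos (ENSMUSG00000003545, chromosome 7, 19888070 to 19895394, minus strand), rose from a very low level. It was at 0.448, 0.593, 0.494, 0.294, 0.574, 1.53, 1.57, 1.11 and 1.61 TPM from day 2 to day 18, with every day from day 12 on above every earlier day. Counts were few, from 21 on day 8 to 189 on day 12, and the median coefficient of variation over the 3 profiles was 17.7%, compared with 1.34% for Klf6. The line rose by 1.99 log2 units (SE 0.51, edgeR adjusted p = 0.00756), and the late mean was 2.80 times the early mean. On the log2(TPM + 1) scale the rise was 0.95, since Fosb lies near the added 1.

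As shares of summed TPM of the 4 Fos family genes, Fosl1 made up 32.5% on day 2, 15.5% on day 8 and 1.29% to 3.37% from day 10 on. Fosl2 rose from 63.3% on day 2 to 84.7% to 89.4% from day 10 on. Fos held its largest share, 13.8%, on day 8, and Fosb did not exceed 2.50%. The sum of the family was 171.3 TPM on day 2, 63.6 TPM on day 8 and 52.5 to 67.3 TPM thereafter. Thus late cultures held mostly Fosl2 transcripts, at a lower family total, and these shares are levels without a test.

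**Figure D2:**
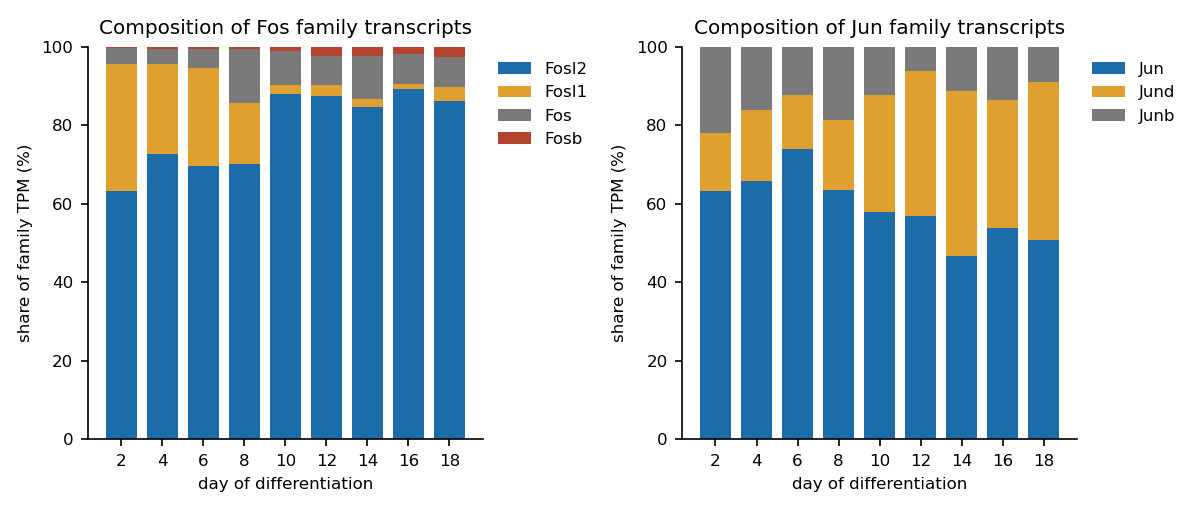
Composition of Fos family (left) and Jun family (right) transcripts by day, as the percent of the family's summed TPM that each gene takes; each bar is 1 day. The Fosl1 share goes from 32.5% to 3.37% between days 2 and 18, and the Jund share from 14.7% to 40.2%.

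Jun, the most abundant of its family (ENSMUSG00000052684, chromosome 4, 94715725 to 94718913, minus strand), fell in a step. It was at 28.9, 28.0 and 29.7 TPM on days 2, 4 and 6, at 16.8 TPM on day 8, and at 11.3, 15.4, 12.3, 11.8 and 14.9 TPM on days 10 to 18. No late value reached the level of days 2 to 6. The line fell by 1.44 log2 units (SE 0.28, edgeR adjusted p = 0.00173).

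Junb, which opposes Jun at many AP-1 sites (ENSMUSG00000052837, chromosome 8, 87500811 to 87502617, minus strand), was at 10.0, 6.79, 4.92, 4.93, 2.37, 1.68, 2.94, 2.94 and 2.64 TPM. Its level was lowest on day 12, at 1.48 CPM (95% Wilson interval 1.21 to 1.82) against 10.5 CPM (9.59 to 11.6) on day 2, and later days lay above that minimum. The line fell by 2.00 (SE 0.42, edgeR adjusted p = 0.00245).

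Jund, the member of the family that is expressed broadly in resting cells (ENSMUSG00000071076, chromosome 8, 73221638 to 73224515, plus strand), went the other way. It was at 6.71, 7.70, 5.57, 4.77, 5.86, 10.1, 11.1, 7.18 and 11.8 TPM, with its 3 highest values on days 12, 14 and 18, while day 16 lay below day 4. The line rose by 0.79 (SE 0.27, edgeR adjusted p = 0.0305). That call was lost without day 6 (adjusted p = 0.0622), day 14 (0.0613) or day 18 (0.0982), and the rise was 0.68 to 0.95 with each day left out in turn. The spline call (adjusted p = 0.0175) was likewise lost without day 6 (0.0646), day 8 (0.0607) or day 14 (0.0505). Jun and Jund each overlap a minor transcript on the other strand (BC042782 with 201.7 counts and Gm11175 with 168.2 counts over all days), and their own counts were fractional in 20 and 23 profiles.

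Within the Jun family, Jun took 63.4% of TPM on day 2, 73.9% on day 6 and 46.7% to 57.9% from day 10 on. Jund rose from 14.7% to 40.2% between days 2 and 18, and its highest share was 42.2% on day 14. Junb held 21.9% on day 2 and 8.99% on day 18. The family sum went from 45.7 to 29.3 TPM, and Fos family transcripts exceeded Jun family transcripts 3.75 times on day 2 and 2.20 times on day 18. The smaller Jun family total was thus shared more evenly between Jun and Jund at the end.

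Egr1, a zinc finger factor induced by the same signals as Fos, was abundant and fluctuating (ENSMUSG00000038418, chromosome 18, 35020861 to 35024638, plus strand). Its level was 83.7, 63.4, 64.6, 114.8, 63.2, 83.2, 97.9, 73.7 and 86.65 TPM from day 2 to day 18. Day 8 reached 230.2 CPM (95% Wilson interval 224.8 to 235.7), against 127.4 (124.0 to 130.8) on day 6 and 123.9 (119.4 to 128.6) on day 10. Neither the line (log2 change 0.09, SE 0.29, edgeR adjusted p = 0.809) nor the spline (0.982) passed. The sign of the fitted change turned when day 4 or day 6 was left out (-0.06 and -0.006), so no direction is given.

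In TPM, Fos and Egr1 had their 2 highest levels on the same days, 8 and 14, a coincidence looked for after their levels had been seen. In CPM it did not hold for Fos, which was at 8.42 CPM on day 2 (95% Wilson interval 7.59 to 9.34) and 6.73 CPM (6.02 to 7.53) on day 14. In TPM, 0.983% of all genes tested had these as their 2 highest days, and none of the 34 other immediate early genes examined did. Measured against the mean of days 6 and 10, day 8 was higher by 0.93 log2 units in Fos and 0.83 in Egr1. A difference smaller than that of Fos was found in 96.0% of genes and one smaller than that of Egr1 in 95.1%. By the same measure Fosl1 was at 0.83 (95% of genes smaller) and Junb at 0.52 (90.6%). Fosl1 fell across these days, at 26.0, 9.84 and 1.17 TPM, so a positive value need not be a peak. Klf6 was at 0.14, Jun at -0.125, Klf4 at -0.14, Jund at -0.21 and Fosl2 at -0.38. Fosb moved down the most, at -0.85. With 1 library a day a culture and its day cannot be told apart.

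The typical step between neighbouring days also differed among the genes. Its median size was 0.60 log2 units for Fos, 0.54 for Fosb, 0.76 for Fosl1 and 0.56 for Junb, larger than in 81.3% to 89.1% of genes. Fosl2 and Klf6 moved by only 0.11 and 0.12, Klf4 by 0.18, Jun by 0.28, Egr1 by 0.37 and Jund by 0.385. The median over all genes was 0.22. Fos, Fosb, Fosl1 and Junb also had few counts on some days, 117, 21, 25 and 55 at the lowest, and the part of counting error in their steps was not tested.

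Klf6, a Krüppel-like zinc finger factor (ENSMUSG00000000078, chromosome 13, 5860735 to 5869639, plus strand), fell early and then stayed level. It was at 136.1, 105.0 and 76.2 TPM on days 2, 4 and 6 and between 69.4 and 82.6 TPM on all later days. The line fell by 0.89 log2 units (SE 0.19, edgeR adjusted p = 0.0029). Without day 2 the fall was 0.56 (adjusted p = 0.0185), still past the threshold.

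Klf4, a member of the same family known as a reprogramming factor (ENSMUSG00000003032, chromosome 4, 55540013 to 55545347, minus strand), had the narrowest range of the 10. It was at 24.05, 21.5, 19.1, 19.3, 23.7, 28.5, 26.5, 24.7 and 21.1 TPM from day 2 to day 18, lowest on days 6 and 8 and highest on day 12. The line did not pass (log2 change 0.04, SE 0.18, edgeR adjusted p = 0.879), and its sign turned under TMM scaling. The spline passed with an adjusted p of 0.0155, a call that was lost when day 2, 4, 6, 8 or 12 was left out, with adjusted p of 0.0749, 0.0699, 0.119, 0.061 and 0.0558.

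**Figure D3:**
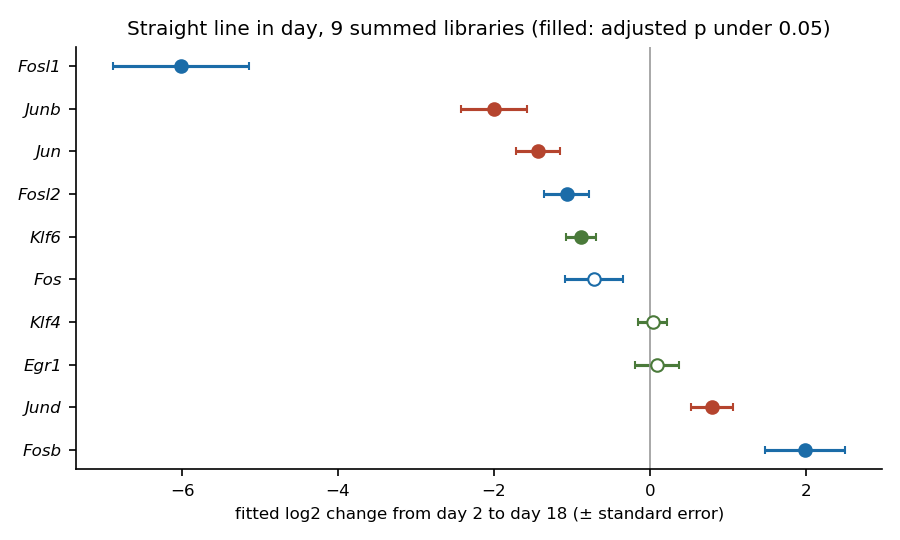
Fitted log2 change from day 2 to day 18 (horizontal axis) for each of the 10 genes, with the standard error as a bar, from a straight line in day over 9 summed libraries; filled points had an adjusted p under 0.05. Changes run from -6.01 for Fosl1 to 1.99 for Fosb, and Fos, Klf4 and Egr1 are open.

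Over the 9 libraries, log2 CPM of Fosl1 and Jun had a Pearson r of 0.976, Fosb and Jund of 0.961, Fosl1 and Junb of 0.897, and Fos and Egr1 of 0.700. The lowest value was -0.712, between Fosb and Junb. These describe 9 points that share a common course in time and carry no p. Among 7613 genes with a mean of at least 10 TPM, the nearest in course were Anxa1 to Fosl1 (r = 0.991), Fbxo32 to Fosl2 (0.990), Sgk1 to Jun (0.981), Gopc to Junb (0.983) and Mical3 to Jund (0.958). For Fosb it was Ift20 (0.981), for Klf4 Diablo (0.904) and for Klf6 Fbxo30 (0.982). Egr1 was nearest to its own relative Egr2 (0.884). For Fos the nearest were Gm17560 (0.901), Fam57a (0.874) and Lsm2 (0.841). Pearson's r compares the shape of a course and not its size. Anxa1 was at 951 TPM on day 2 and 563 TPM on day 18, while Fosl1 was at 55.6 and 2.18 TPM.

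Transcripts of proteins that pair with Fos or Jun proteins changed in both directions. Of 12 AP-1 dimer partners, 10 could be tested, of which 4 rose, 4 fell and 2 did not pass, beside 28.3% rising and 26.1% falling of all genes, with a median log2 change of 0.60. Maf, a large Maf factor, rose by 1.83 log2 units (9.35 TPM on day 2, 31.3 on day 18) and Atf7 by 1.17, and Jdp2, a repressor that pairs with Jun proteins, by 0.87. The small Maf factors fell, with a log2 change of -4.07 for Maff (50.4 TPM on day 2, 2.80 on day 18), -2.05 for Mafk and -0.74 for Mafg. Atf4, the stress response factor needed for osteoblast function, fell by 0.74.

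Other immediate early genes mostly fell. Of 34 genes, 32 could be tested, of which 20 fell, 3 rose and 9 did not pass, with a median log2 change of -1.16. Among all genes tested, 26.1% fell and 28.3% rose. Ptgs2, the inducible cyclooxygenase, fell by 8.57 in the line (362 TPM on day 2, 1.81 TPM on day 18) and Ier3 by 3.09. The growth factor Hbegf also fell, from 55.7 to 3.25 TPM. Those that rose were Zfp36l1, which promotes decay of short-lived messengers, by 2.56, Egr3 by 1.49 and Nr4a2 by 0.98. The median member of this list thus fell more than the median of the 10 genes.

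**Figure D4:**
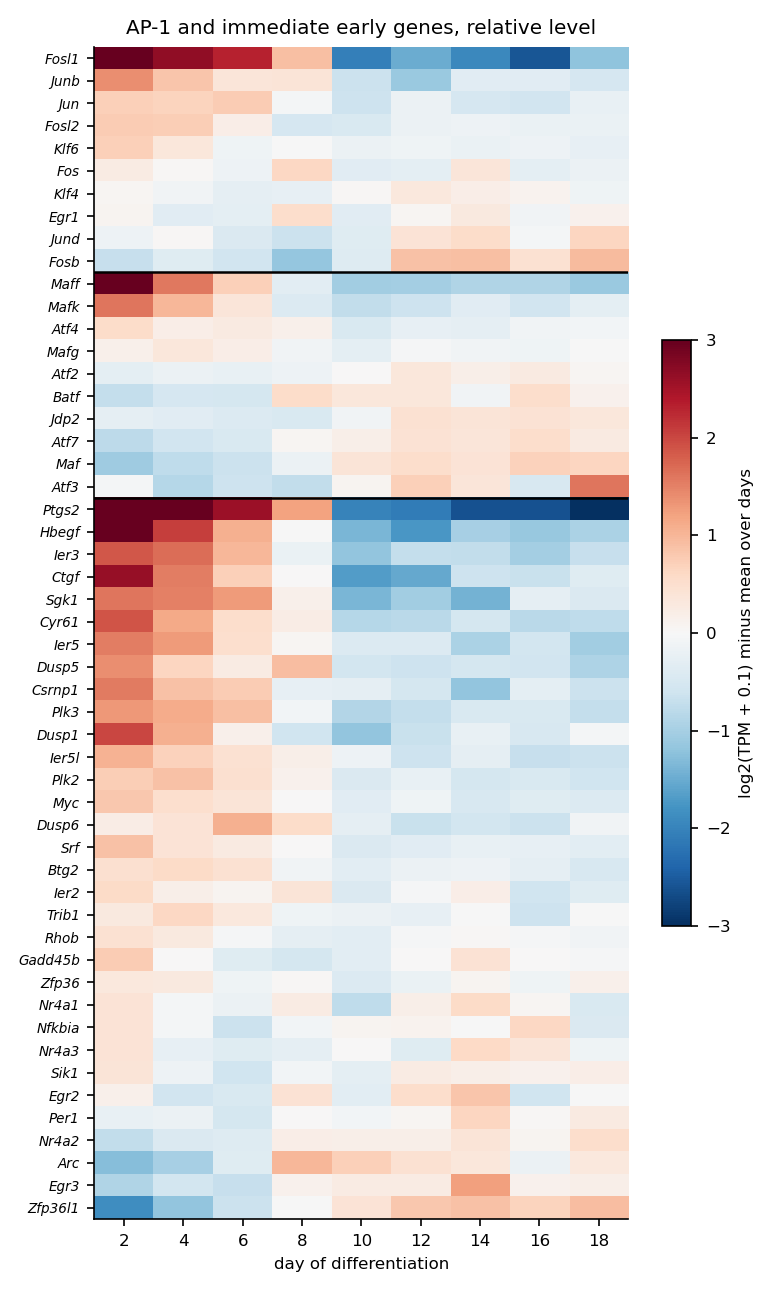
Relative level by day of the 10 genes (top block), 10 AP-1 dimer partners (middle) and 32 other immediate early genes (bottom), as log2(TPM + 0.1) minus the gene's mean over the days, with colours limited at ±3 and each block sorted by fitted change. Genes that fell, such as Fosl1, Jun and Junb above and Ptgs2 below, are red on day 2 and blue from day 10 on, while Maf and Zfp36l1 show the opposite.

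Of 11 other Klf genes, 5 rose, 4 fell and 2 did not pass (median 0.18), beside 28.3% rising and 26.1% falling of all genes. Klf15, which is induced by glucocorticoids, rose by 6.71 in the line (0.0835 TPM on day 2, 2.38 on day 18), Klf12 by 3.05 and Klf9 by 2.16. Klf5, linked to proliferation, fell by 2.46, Klf10, an early target of transforming growth factor β, by 1.30 and Klf16 by 1.06. Klf6 and Klf4 were therefore 2 of a family without a common direction.

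Of 18 kinases and cofactors upstream of Fos and Egr1, 4 rose, 6 fell and 8 did not pass (median -0.14). In either direction, 54.3% of all genes passed, so that this list is near the background. Mapk3 (ERK1) rose by 0.87, Mapk7 by 0.73 and Elk4, a partner of serum response factor, by 0.54. Elk3 fell by 1.30, the actin-regulated cofactor Mkl1 by 0.75 and Map2k1 by 0.63. Transcript levels of kinases say nothing of their activity.

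Of 13 textbook target genes of AP-1, 7 fell, 3 rose and 3 did not pass the line (median -1.17), and 13 passed the spline. Among all genes, 26.1% fell and 28.3% rose in the line, and 59.1% passed the spline. Plaur, the urokinase receptor, fell by 4.30 (77.1 TPM on day 2, 5.34 on day 18), the hyaluronan receptor Cd44 by 4.20 and the cytokine Il6 by 3.66. The proteases Mmp3 and Mmp9 rose by 3.92 and 3.90 in the line and the integrin Itga2 by 3.61. Levels on days 2 and 18 were low, at 0.051 and 6.23 TPM for Mmp3 and 0.32 and 1.38 TPM for Mmp9. Itga2 was at 0.78 and 5.96 TPM and Il6 at 2.17 and 0.408 TPM. Mmp9 was highest on day 14, at 2.93 TPM. Mmp13, the collagenase of bone, rose and fell, at 4.76 TPM on day 2, 142 TPM on day 8 and 91.1 TPM on day 18 (spline adjusted p = 1.36e-06 by edgeR). Spp1, counted here and among the osteoblast markers, did not pass the line. Mmp9, 1 of the 3 AP-1 targets that rose, was also 1 of the 3 osteoclast markers that rose. Heat shock genes, some of which respond to handling stress, fell in 8 of 9 cases (median -1.25), beside 26.1% of all genes. The 1 that did not pass was Hspa1a, at 2.06 TPM on day 2 and 1.61 TPM on day 18. Hspa1b was also low, at 2.69 and 1.34 TPM on those days. The early days were thus higher in most heat shock genes as well. The part of these genes in the fall of the immediate early genes was not tested.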

How the data were processed

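RNA sequencing profiles of 27 samples of calvarial cells were used, 3 for each of 9 days. Following NuGEN Ovation amplification, reads were aligned by the authors to NCBIM37 with Bowtie 0.12.9 and quantified with RSEM 1.2.8, as listed in the submitters' processing notes. The files deposited by the authors hold, per gene, an expected count without normalisation. They also hold TPM, a relative abundance that the authors took from RSEM with an effective length per gene. FPKM, likewise deposited, served only as an alternative for family shares.

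Counts of the 3 profiles of a day (1 barcode) were summed and rounded. Total counts per profile were 7331125 to 20888956. A line in day, and a natural spline with 3 degrees of freedom, were fitted by edgeR 4.0.16 in R 4.3.3 (quasi-likelihood test, upper-quartile factors, filterByExpr minimum count 10, Benjamini-Hochberg over 15659 genes, adjusted p under 0.05), leaving 7 and 5 residual degrees of freedom. TPM was divided by each profile's 75th percentile of values above 0 and multiplied by the mean percentile, 24.0 TPM. Likeness used Pearson's r of log2 CPM (prior count 0.5). Alternatives were TMM, other filters, DESeq2 1.42.0, limma 3.58.1 on log2 TPM, profiles as samples, days or replicates left out, early against late days and other TPM totals. Symbols came from the GENCODE annotation of NCBIM37 (37205 of 37991 identifiers). Python 3.11.15 was used for levels.

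The members and lists were chosen with earlier results of these data known. All 10 genes are named. Of each other list, up to 3 genes called per direction, by size of fitted change and reaching 1 TPM on some day, are named, with the nearest gene in course to each of the 10 and 3 for Fos. Bglap, Alpl, Sp7, Col1a1, Col1a2, Lyz2, Dcstamp, Calcr, Pecam1, Emcn, Myod1, Myog, Mafg, Mmp13 and Spp1 were named after their values were seen, as was Ccdc85b. A further dimer partner is not reported here.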

Additional observations from a re-analysis of the deposited data

How the results depend on the processing

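Of 211 recomputed log2 changes of the 10 genes, 195 kept their direction and their side of the threshold, 7 turned in sign, 7 lost the call and 2 gained it. All 7 that turned belonged to Klf4 and Egr1, which the line did not call. Klf4 was at -0.0104 with TMM factors, -0.00581 with no filter beyond 1 count and -0.001745 in DESeq2, and -0.0471 to 0.207 with single days left out. Egr1 was at -0.0566 to 0.253 with single days left out. Lost calls were Jund (0.75, adjusted p = 0.0502 with no filter beyond 1 count, 0.71 and 0.79 by limma on log2(TPM + 1) and log2(TPM + 0.1) with adjusted p of 0.0944 and 0.0954, and the 3 days given above) and Fosl2 without day 2. Their cause was not tested. The line was called for 6 to 8 of the 10 genes and the spline for 6 to 9. The spline was called for 6 with 2 degrees of freedom, without day 6 and without day 8, and each time Jund and Klf4 were lost. Over all genes, 7187 to 10750 passed the line and 7390 to 12360 the spline.

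With the 27 profiles as separate samples, Fos was called as falling, by 0.71 (edgeR adjusted p = 0.00633 with the replicate block and 0.00467 without it). These fits take the 3 profiles of a day as independent, although they share 1 barcode and may be lanes of 1 library. Fos also passed the spline (0.0273 and 0.0207), and no other call changed with the replicate block. Profiles with the same number on different days did not deviate together (mean correlation 0.00309, against -0.00152 for different numbers, lowest -0.214), so the numbers do not pair samples. Leaving out mt-Rnr1 and mt-Rnr2 from the TPM total raised mean levels, for example of Klf6 to 125.0 and of Fosb to 1.33 TPM. TMM moved the median gene by -0.04 log2. Levels of Fosb, Junb and late Fosl1 are limited by counts of 21 to 189, 55 to 445 and 25 to 91 a day, and the smallest share that 3 counts allow was 0.0484 to 0.134 CPM.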
